A study of Mus musculus with 11 samples.

Results

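The 9 oncofetal and hepatoblast genes described here were Afp, Gpc3, Bex1, Ly6d, Dppa5a, Lin28b, Hmga2, Igf2bp1 and Igf2bp3, out of 20145 genes with a RefSeq symbol on the array. They were chosen by name, with results of these arrays known. Levels and differences on the 11 arrays took part in that choice, so all values of the 9 genes are given as a description, without a test. All 9 genes are accounted for: 12 probes matched them, and each of the 9 had a probe well above background on at least 3 arrays. The 2 probes that fell below that minimum were a second Hmga2 probe and a second Lin28b probe, both above background on no array.

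Livers of 11 male mice were profiled, each on its own 1-colour Agilent array. There were 4 β-catΔEx3:Myc livers (mutant β-catenin together with c-Myc), 3 β-catΔEx3 livers (mutant β-catenin alone) and 4 WT livers. All mice shared a hybrid background, mostly B6SJL with some 129S6, and were 22 to 40 days old; single ages were given for 1 mouse of each group, at 29, 30 and 31 days in the order just named. The series describes the livers as tumour-bearing and models of hepatoblastoma, a liver cancer of young children, while the WT samples are labelled only as liver. The promoter or Cre driver behind each allele, and whether tumour was dissected from its surroundings, are not given in the sources used here. Each array stands for 1 labelled sample and nothing states how litters were shared, so the spread between arrays is the only error available.

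Oncofetal genes are active in the embryo or fetal liver, fall silent in the adult organ and can return in liver cancer. Alpha-fetoprotein (Afp) is the main plasma protein of the fetal liver and declines after birth, and glypican-3 (Gpc3) is a cell-surface heparan sulphate proteoglycan used as a tumour marker in people. Lin28b is an RNA-binding protein that blocks maturation of the let-7 microRNAs. Hmga2, an architectural chromatin protein, and the mRNA-binding proteins Igf2bp1 and Igf2bp3 are known let-7 targets, which links these 4 genes in a fetal growth programme.

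Promoter sequences from 250 bases before to 50 bases after the annotated start were found in RefSeq (GRCm38.p6) for 6 of the 9 genes. Those of the genes that were highest in β-catΔEx3:Myc livers are shown, together with Igf2bp3, because the 2 alleles of the study bear on motifs of TCF/LEF factors, the partners of β-catenin, and on the E-box, which Myc binds. They lie at chr5:90490464-90490763 on the plus strand (Afp), chrX:52613925-52614224 (Gpc3), chrX:136215464-136215763 (Bex1), chr10:45470152-45470451 (Lin28b) and chr6:49214905-49215204 (Igf2bp3), the last 4 on the minus strand. Each is written 5′ to 3′ along the gene. Capitals mark matches on either strand to CTTTGAT (TCF/LEF), CACGTG (E-box), TATAAA (the TATA motif of core promoters), CCAAT (bound by NF-Y, and read as ATTGG on the other strand) or GTTAAT (part of the HNF1 site).
Afp: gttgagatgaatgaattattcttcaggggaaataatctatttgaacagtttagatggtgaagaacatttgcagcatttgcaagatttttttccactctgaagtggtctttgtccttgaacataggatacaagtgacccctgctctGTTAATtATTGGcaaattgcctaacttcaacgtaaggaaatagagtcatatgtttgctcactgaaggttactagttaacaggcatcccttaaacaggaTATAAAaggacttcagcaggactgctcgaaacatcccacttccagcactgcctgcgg
Gpc3: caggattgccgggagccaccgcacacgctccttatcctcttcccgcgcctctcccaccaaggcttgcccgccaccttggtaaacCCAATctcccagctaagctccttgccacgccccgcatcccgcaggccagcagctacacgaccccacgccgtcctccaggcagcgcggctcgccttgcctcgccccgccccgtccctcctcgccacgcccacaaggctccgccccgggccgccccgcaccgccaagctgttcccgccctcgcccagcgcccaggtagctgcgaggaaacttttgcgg
Bex1: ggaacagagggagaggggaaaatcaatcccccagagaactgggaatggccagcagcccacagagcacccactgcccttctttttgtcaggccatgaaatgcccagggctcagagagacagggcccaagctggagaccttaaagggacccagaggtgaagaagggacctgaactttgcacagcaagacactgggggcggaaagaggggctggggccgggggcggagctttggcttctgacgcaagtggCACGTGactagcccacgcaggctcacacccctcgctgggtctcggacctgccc
Lin28b: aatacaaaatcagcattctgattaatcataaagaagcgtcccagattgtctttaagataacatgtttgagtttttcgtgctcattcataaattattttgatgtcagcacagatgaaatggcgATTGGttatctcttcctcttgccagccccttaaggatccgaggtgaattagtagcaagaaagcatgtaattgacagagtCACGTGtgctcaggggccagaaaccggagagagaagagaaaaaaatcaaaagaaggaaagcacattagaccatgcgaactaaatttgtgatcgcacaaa
Igf2bp3: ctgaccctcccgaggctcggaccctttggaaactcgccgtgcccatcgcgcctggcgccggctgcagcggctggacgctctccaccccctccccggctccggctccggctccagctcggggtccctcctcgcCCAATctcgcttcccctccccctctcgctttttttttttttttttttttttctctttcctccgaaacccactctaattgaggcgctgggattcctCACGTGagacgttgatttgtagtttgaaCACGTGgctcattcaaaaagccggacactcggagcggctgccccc

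The Afp window held TATAAA 7 bases before the start, GTTAAT at -105 and ATTGG at -98. The E-box letters CACGTG began at -3 in Bex1, at -49 in Lin28b, and at -23 and 6 in Igf2bp3. CCAAT letters began at -166 in Gpc3 and at -118 in Igf2bp3, and at -128 on the opposite strand in Lin28b. CTTTGAT was in 0 of the 6 windows, and the Hmga2 window (chr10:120476420-120476719) held none of the 5 motifs. Among 32851 RefSeq promoters of the same length, 3.73% held CTTTGAT, 7.15% held CACGTG, 13.6% held TATAAA, 37.4% held CCAAT and 7.1% held GTTAAT. These are matches of letters in a short window and do not show binding. Ly6d, Dppa5a and Igf2bp1 are named only.

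Each array had 47.9% to 52.4% of its probes well above background, no saturated spot, and an upper quartile of processed signal between 225.2 and 352.4. Even so, Dppa5a, Lin28b and Igf2bp1 were not above background on some arrays, and what limited the precision was not tested. Myc signal was set against the labels: it was 7643, 2068, 1655 and 7570 on the β-catΔEx3:Myc arrays, 1266, 634.8 and 1024 on the β-catΔEx3 arrays, and 1182, 224.7, 298.9 and 134.2 on the WT arrays. Every β-catΔEx3:Myc array was above every other array. The β-catΔEx3 and WT arrays overlapped, so Myc cannot tell those labels apart. Ctnnb1, the β-catenin gene, differed from WT by -0.17 in β-catΔEx3:Myc and -0.18 in β-catΔEx3 livers on the log2 scale, and was not called. β-catΔEx3:Myc replicate 3 stood apart: on the second principal component (9.61% of the variance) it lay at 8.57, while the other 3 arrays of its group lay between -71.3 and -30.2 and the β-catΔEx3 arrays between 28.4 and 52.8. Replicate 3 was also the only array of slide 3. Slide 1 held WT replicates 1 to 3, slide 2 held β-catΔEx3:Myc replicates 1 and 2 with β-catΔEx3 replicates 1 and 2, and slide 4 held 1 array of each group. Slide and group therefore overlapped in large part. Values are given below from a limma fit of the 3 group means, then with slide as a block and within the slides that held both groups. In the blocked fit β-catΔEx3:Myc replicate 3 has no bearing on the group differences, being alone on its slide. Slide 1 held WT arrays only, so WT replicates 1 to 3 bear there on the spread and not on the differences. Each blocked difference from WT therefore rests on 1 WT array, replicate 4. A call lost with the block need not mean a smaller difference. The hepatocyte markers were strong on all arrays, with summed levels of 3320 to 5080 times the upper quartile in β-catΔEx3:Myc livers, 3760 to 4420 in β-catΔEx3 livers and 5420 to 6830 in WT livers.

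Over all 22283 items tested (genes, or unnamed probes by their accession), 42.3% were called at an adjusted p below 0.05 in β-catΔEx3:Myc against WT, with 25% higher and 17.2% lower. Among the 9 genes, 7 were called higher and none lower. In β-catΔEx3 against WT 36.8% of items were called, 21.1% higher and 15.6% lower, and 5 of the 9 genes were called higher and none lower. In β-catΔEx3:Myc against β-catΔEx3 only 0.251% of items were called (0.108% higher, 0.144% lower), and none of the 9 genes. When slide entered the fit, 6, 3 and 3 of the 9 genes were called in the same order of comparisons, all higher, against 8.64%, 8.02% and 0.812% of items. The groups did not overlap, with the first group above the second, for 6 of 9 genes (24.6% of all items), 5 of 9 (24.6%) and 3 of 9 (3.98%). They did not overlap in the other direction for 0 of 9 (17.6% of all items), 0 of 9 (19%) and 1 of 9 (4.12%). The median log2 fold change of the 9 genes was 3.54 in β-catΔEx3:Myc against WT (all items 0.133), 1.31 in β-catΔEx3 against WT (all items 0.091) and 0.48 between the mutant groups (all items 0.016). Nothing is read from these shares, since the same comparisons led to the choice of the genes. The 2 comparisons with WT share the WT arrays.

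**Figure D1:**
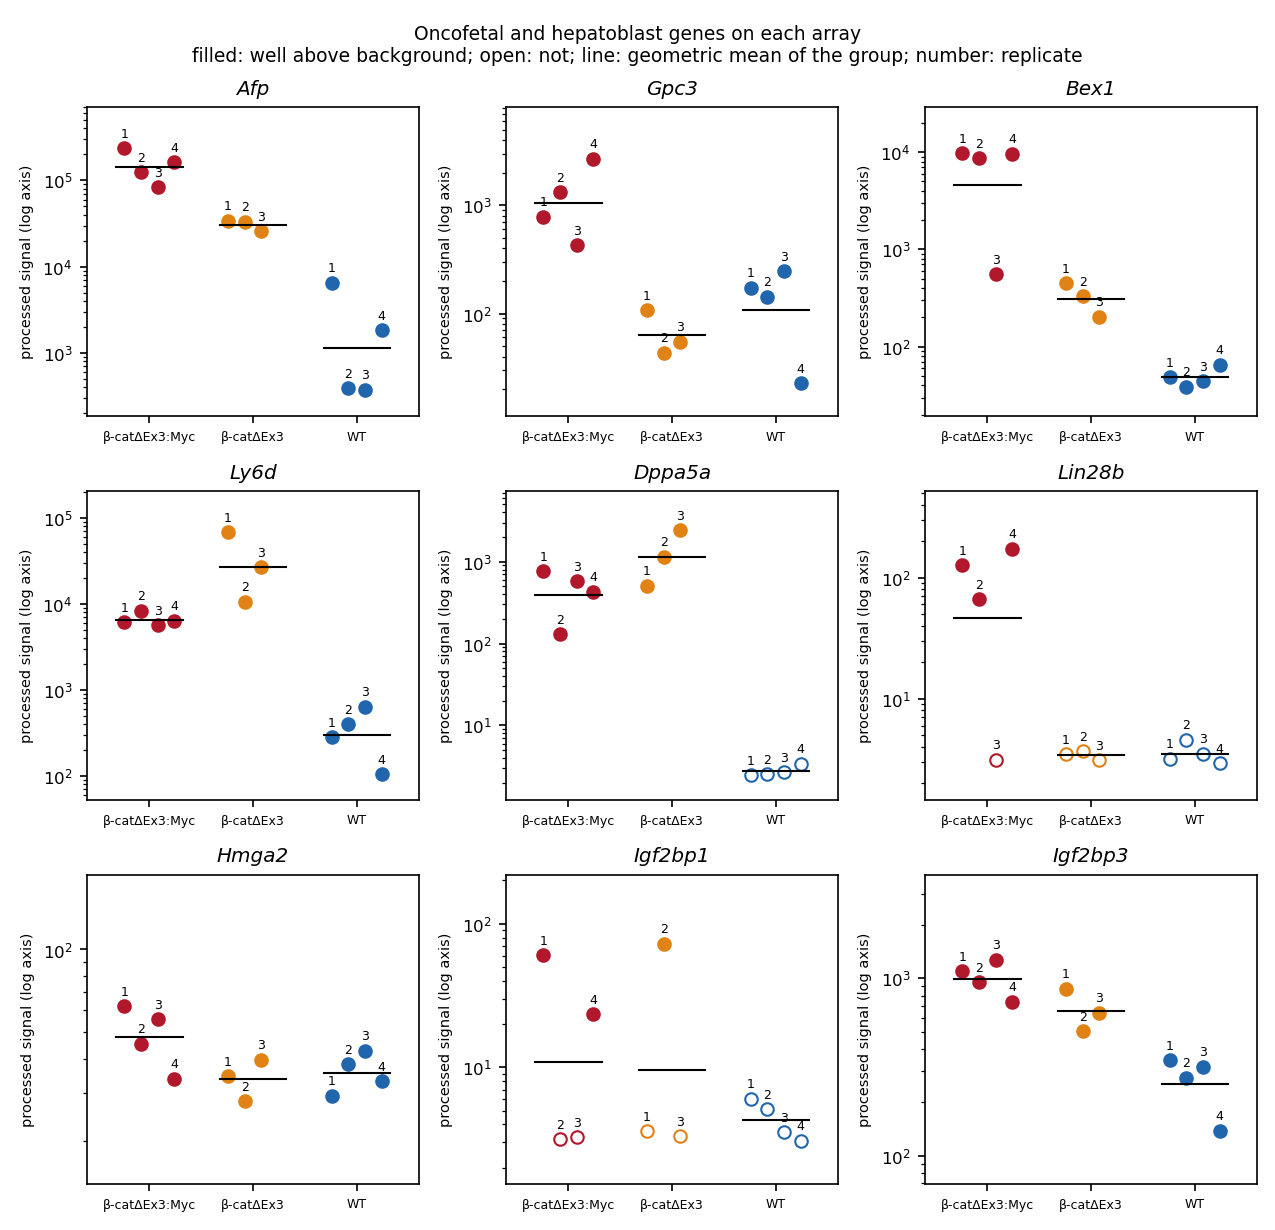
Processed signal (log axis, scanner units) of each of the 9 genes on each array, in β-catΔEx3:Myc, β-catΔEx3 and WT livers; numbers are replicates, open circles are not well above background, and lines are geometric means. Afp and Bex1 step down from β-catΔEx3:Myc through β-catΔEx3 to WT without overlap. Igf2bp3 is higher in both mutant groups than in WT, and its mutant groups overlap. Ly6d is highest in β-catΔEx3, and Dppa5a has its highest mean there with the mutant groups overlapping. Lin28b is above background on 3 arrays, all β-catΔEx3:Myc.

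Afp was high in both mutant groups and highest with Myc. Its signal was 235500, 124300, 83720 and 161300 in β-catΔEx3:Myc livers, 34110, 33020 and 25750 in β-catΔEx3 livers, and 6516, 394.6, 374.6 and 1844 in WT livers. The 3 groups did not overlap, and WT was the most variable: WT replicate 1 was far brighter than replicates 2 and 3. On the log2 scale over the upper quartile of the array, Afp had a mean of 8.84 and an SD of 0.61 over the 4 β-catΔEx3:Myc livers, 6.77 with an SD of 0.24 over the 3 β-catΔEx3 livers, and 2.09 with an SD of 2.05 over the 4 WT livers. The log2 fold change was 6.75 ± 0.82 (SE), or 108-fold, for β-catΔEx3:Myc against WT. It was 4.68 ± 0.88, or 25.7-fold, for β-catΔEx3 against WT, and 2.07 ± 0.88, or 4.19-fold, between the mutant groups. After blocking by slide, these were 5.97 ± 1.64, 3.62 ± 1.64 and 2.35 ± 1.04. Both comparisons with WT were called in the limma fit without the block and neither was called with it. Within slide 4 the values were 6.13, 3.46 and 2.66, and within slide 2 the mutant groups differed by 2.20. Among single arrays, WT replicates 1 and 3 moved the comparisons with WT most: β-catΔEx3:Myc against WT was 7.56 without replicate 1 and 6.16 without replicate 3, and β-catΔEx3 against WT was 5.49 and 4.10 on the same removals. In whole liver, more Afp-positive cells and more Afp RNA per cell cannot be told apart, and this holds for every gene here.

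Of the 15 measured genes known to regulate Afp (16 listed), 2 were called higher and 4 lower in β-catΔEx3:Myc livers (all items 25% and 17.2%). In β-catΔEx3 livers 2 were called higher and 5 lower (all items 21.1% and 15.6%). Both comparisons are with WT in the limma fit. Onecut1, a hepatocyte transcription factor, fell by 4.69 on the log2 scale in β-catΔEx3:Myc livers (adjusted p = 7.59e-05) and by 3.69 in β-catΔEx3 livers (adjusted p = 0.000632). It was above background on 1 of 4 β-catΔEx3:Myc arrays, and with the other 3 raised to the lowest signal above background on each array the first of these differences was -4.25 (adjusted p = 8.45e-05). The blocked fit gave -3.21 (adjusted p = 0.0257) and -2.06 (adjusted p = 0.0788). Foxa3, a pioneer factor of liver genes, was 2.52-fold lower (adjusted p = 0.000685) and 2.14-fold lower (adjusted p = 0.00374) in the same comparisons, and neither call held in the blocked fit (adjusted p = 0.074 and 0.0859). Zhx2, the known repressor of Afp after birth in mice, was above background on no array, so the array gives no difference for it. With slide as a block, 2 calls in β-catΔEx3:Myc against WT and 1 in β-catΔEx3 against WT were left, all lower. Of the 3 other genes of the albumin family, the vitamin E carrier afamin (Afm) was called, lower by 1.64 in β-catΔEx3:Myc livers (adjusted p = 0.000524, limma) and by 2.05 in β-catΔEx3 livers (adjusted p = 0.000339). The first of these calls was lost in the blocked fit (adjusted p = 0.0854). Albumin (Alb) itself was near the top of the range in all groups, with signals of 311600 to 396600 in β-catΔEx3:Myc livers, 329300 to 352400 in β-catΔEx3 livers and 342400 to 398400 in WT livers.

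Gpc3 was high in the livers with Myc and low in both other groups. Its signal was 784, 1331, 428.7 and 2715 in β-catΔEx3:Myc livers, 107.2, 43.37 and 54.97 in β-catΔEx3 livers, and 172.8, 143.2, 246 and 22.57 in WT livers. The β-catΔEx3:Myc arrays were above all 7 others, and the β-catΔEx3 and WT arrays overlapped. The log2 fold change was 3.10 ± 0.74 (8.55-fold) for β-catΔEx3:Myc against WT, and 3.92 ± 0.80 (15.1-fold) against β-catΔEx3. For β-catΔEx3 against WT it was -0.82 ± 0.80. Under normexp background correction Gpc3 was 5.29-fold higher in β-catΔEx3:Myc than in WT livers and 7.89-fold higher than in β-catΔEx3 livers. The value for β-catΔEx3 against WT changed sign with the slide: it was 1.57 with slide as a block and 0.94 within slide 4, where the WT array was replicate 4, the dimmest of its group. β-catΔEx3:Myc against WT was 5.96 with the block, 6.59 within slide 4 and 2.43 without WT replicate 4, and against β-catΔEx3 it was 4.38, 5.64 within slide 4 and 3.75 within slide 2. Of the other 5 glypicans, Gpc1 and Gpc4 passed the background filter. Gpc4 was lower than in WT by 1.32 in β-catΔEx3:Myc livers (adjusted p = 0.0021, limma) and by 1.55 in β-catΔEx3 livers (adjusted p = 0.00172). Gpc1 was lower by 1.41 in β-catΔEx3:Myc livers (adjusted p = 0.00688). None of these 3 calls held with slide as a block, where Gpc4 differed from WT by -1.38 in β-catΔEx3:Myc and -1.63 in β-catΔEx3 livers. Gpc1 differed there by -0.90 in β-catΔEx3:Myc livers.

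Bex1, an X-linked adaptor protein first described in brain, formed a staircase. Its signal was 9690, 8624, 555.3 and 9656 in β-catΔEx3:Myc livers, 446.7, 332 and 203.7 in β-catΔEx3 livers, and 48.74, 38.87, 43.89 and 65.13 in WT livers. The groups did not overlap, but β-catΔEx3:Myc replicate 3 lay just above the β-catΔEx3 arrays and far below the other 3 of its own group. A second probe gave 4314, 3502, 211.8 and 2956 in β-catΔEx3:Myc livers, 182.2, 118.4 and 94.9 in β-catΔEx3 livers, and 16.16 to 26.56 in WT livers. The log2 fold change was 6.39 ± 0.84 (84-fold) for β-catΔEx3:Myc against WT, 2.64 ± 0.91 (6.23-fold) for β-catΔEx3 against WT and 3.75 ± 0.91 (13.5-fold) between the mutant groups. The second probe gave 6.21, 2.56 and 3.66. When slide entered the fit, the values were 6.50 ± 0.43, 1.69 ± 0.43 and 4.80 ± 0.27. The call in β-catΔEx3 against WT was lost with the block, and on removal of any single WT or β-catΔEx3 array. Within slide 4 the values were 6.89, 1.31 and 5.58, and within slide 2 the mutant groups differed by 4.42. Under normexp background correction, which shrinks dim signals, Bex1 was 38.2-fold higher in β-catΔEx3:Myc livers and 3.27-fold higher in β-catΔEx3 livers than in WT livers. Without β-catΔEx3:Myc replicate 3, the change was 7.44 against WT and 4.80 against β-catΔEx3.

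Bex1 had company among its X-linked relatives, the Bex and Tceal genes (Tceal proteins resemble a transcription elongation factor). Of 9 measured relatives (11 listed), 6 were called higher and none lower in β-catΔEx3:Myc against WT (all items 25% and 17.2%). In β-catΔEx3 against WT 4 were called higher and 1 lower (all items 21.1% and 15.6%). The medians of the relatives were 2.47 and 0.91 on the log2 scale, in that order. Tceal5 was higher by 5.20 ± 0.64 in β-catΔEx3:Myc livers (adjusted p = 0.000188, limma) and by 3.53 ± 0.69 in β-catΔEx3 livers (adjusted p = 0.0031). Bex2 was higher by 4.40 (adjusted p = 0.000902) and 3.48 (adjusted p = 0.00599), and Bex4 by 4.13 (adjusted p = 0.000186) and 3.40 (adjusted p = 0.00111), in the same comparisons. Bex4 read 18220, 12240, 3270 and 16630 in β-catΔEx3:Myc livers, 8287, 4397 and 5253 in β-catΔEx3 livers, and 316.1 to 753.2 in WT livers. Between the mutant groups 0 of the 9 relatives were called. Without β-catΔEx3:Myc replicate 3 the limma fit called 4 of them higher, among them Tceal5 at 2.42 (adjusted p = 0.0177). Against WT, that removal moved Tceal5 to 5.95, Bex2 to 5.09 and Bex4 to 4.73, and Bex2 in β-catΔEx3 against WT was 2.63 without β-catΔEx3 replicate 3. After blocking by slide, 7 relatives were called higher in β-catΔEx3:Myc against WT, 3 in β-catΔEx3 against WT and 4 between the mutant groups. Among neural markers, Snap25 was higher than in WT by 1.74 in β-catΔEx3:Myc livers (adjusted p = 0.000812, limma). In β-catΔEx3 livers Snap25 was higher by 2.65 (adjusted p = 0.000175). Syp differed from WT by 0.01 and 0.07 in the same comparisons and was not called. Of 5 listed, Snap25 and Syp were measured and Chga, Stmn2 and Tubb3 were above background on no array; their summed level was 13.3 to 21 times the upper quartile in β-catΔEx3:Myc livers, 23.5 to 31.9 in β-catΔEx3 livers and 6.96 to 10.5 in WT livers. That sum was higher in β-catΔEx3 than in β-catΔEx3:Myc livers, and the part of neural cells in the Bex1 values was not tested.

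**Figure D2:**
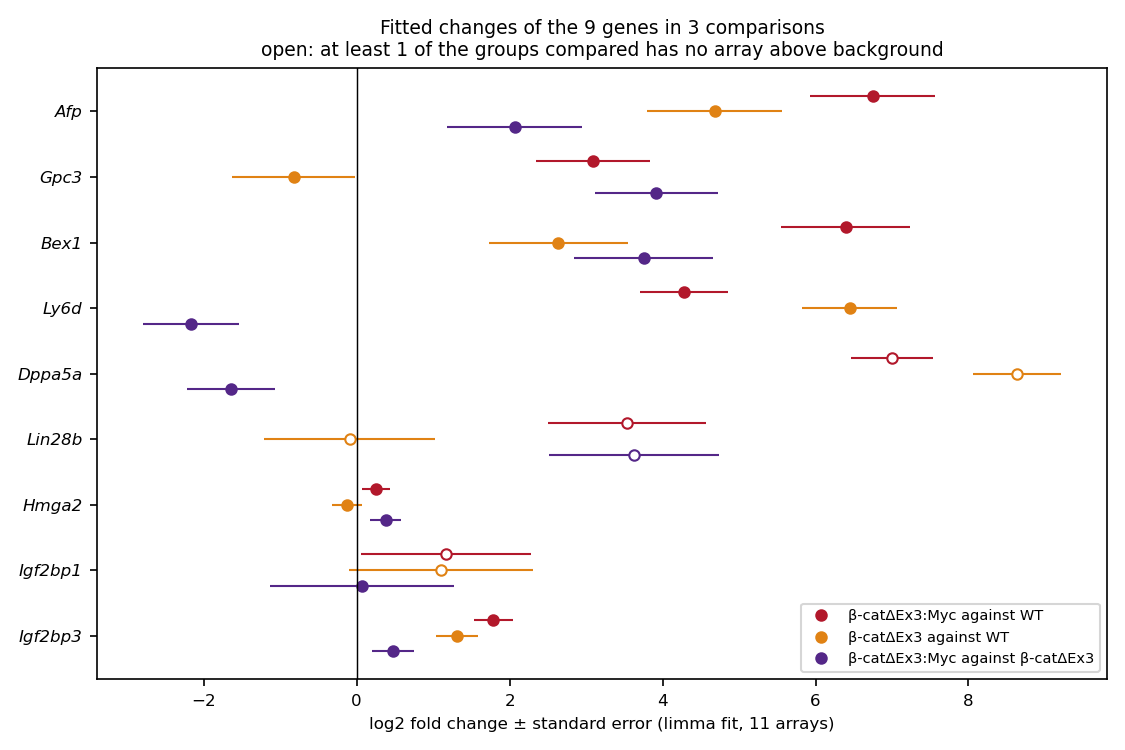
Fitted log2 fold change (x axis) with its standard error for each of the 9 genes in 3 comparisons, from the limma fit to 11 arrays; open circles mark comparisons in which a group had no array above background, where the fitted size is no bound. Afp, Bex1, Ly6d and Dppa5a lie far right of 0 against WT in both mutant groups, and Ly6d and Dppa5a lie left of 0 between the mutant groups.

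Ly6d, a GPI-anchored surface protein of the Ly6 family, was the reverse of Gpc3 between the mutant groups only: it was highest with mutant β-catenin alone. Its signal was 6054, 8251, 5654 and 6374 in β-catΔEx3:Myc livers, 67860, 10530 and 26620 in β-catΔEx3 livers, and 283.1, 401.7, 634.3 and 105.4 in WT livers. The 3 groups did not overlap, and the β-catΔEx3:Myc arrays lay close together while the β-catΔEx3 arrays were spread widely. The log2 fold change was 4.28 ± 0.58 (19.4-fold) for β-catΔEx3:Myc against WT and 6.45 ± 0.63 (87.2-fold) for β-catΔEx3 against WT. Between the mutant groups it was -2.17 ± 0.63, or 4.49-fold lower in β-catΔEx3:Myc livers. With slide as a block the 3 values were 5.59, 7.65 and -2.06; within slide 4 they were 5.59, 7.64 and -2.05, and within slide 2 the mutant groups differed by -2.07. Single β-catΔEx3 arrays mattered: β-catΔEx3 against WT was 5.75 without replicate 1 and 7.13 without replicate 2, and the mutant groups differed by -1.47 and -2.85 on the same removals.

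No other Ly6 gene was called higher in both mutant groups. Of 10 measured relatives (16 listed), none were called higher and 5 lower in β-catΔEx3:Myc against WT (all items 25% and 17.2%). In β-catΔEx3 against WT 2 were called higher and 4 lower (all items 21.1% and 15.6%). Ly6c1 was lower than in WT by 2.62 in β-catΔEx3:Myc livers (adjusted p = 0.000459, limma) and by 2.87 in β-catΔEx3 livers (adjusted p = 0.0006). Ly6f was above background on 3 WT arrays and no other, and was at least 2.77-fold lower in β-catΔEx3:Myc livers (adjusted p = 0.000368) and at least 3.53-fold lower in β-catΔEx3 livers (adjusted p = 0.0021). When slide entered the fit, no call in this list held. Ly6d also marks early B-lineage cells. Of 6 B-lineage markers, 4 were measured, and their summed level was 1 to 1.63 times the upper quartile in β-catΔEx3:Myc livers, 0.664 to 2 in β-catΔEx3 livers and 2 to 3.11 in WT livers, with Cd79a and Pax5 above background on no array. Of these 4, 3 were called lower in each mutant group against WT. Vpreb3, part of the pre-B cell receptor machinery, went the other way, higher by 1.26 in β-catΔEx3:Myc livers (adjusted p = 0.0469, limma), while in β-catΔEx3 livers it differed by 1.31 and did not pass the test (adjusted p = 0.0598). No call on these markers held with slide as a block, and their part in the Ly6d values was not tested.

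Dppa5a, an RNA-binding protein of embryonic stem cells and germ cells, was present in both mutant groups and not detected in WT. Its signal was 765.8, 129.8, 577.1 and 429 in β-catΔEx3:Myc livers and 507, 1157 and 2435 in β-catΔEx3 livers, against 2.46, 2.52, 2.67 and 3.38 in WT livers, none of these 4 well above background. Against WT it was at least 30.3-fold higher in β-catΔEx3:Myc livers and at least 94.2-fold higher in β-catΔEx3 livers. Each bound sets the mean of the mutant group against the mean, over the WT arrays, of the lowest signal that counted as above background, or of the probe's own signal where that was higher. The bounds hold for this setting: under normexp correction the fitted changes were 7.93-fold for β-catΔEx3:Myc and 21.5-fold for β-catΔEx3 against WT. Between the mutant groups the log2 fold change was -1.64 ± 0.58, or 3.11-fold lower in β-catΔEx3:Myc livers, and the groups overlapped. That difference was -1.79 with slide as a block, -2.49 within slide 4 and -1.43 within slide 2. Slide 4 alone gave signals of 429 in β-catΔEx3:Myc, 2435 in β-catΔEx3 and 3.38 in WT.

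Of 18 listed pluripotency genes, 11 passed the filter, among them Nanog, whose signal was 422.7 to 691.5 in β-catΔEx3:Myc livers, 514.3 to 576.6 in β-catΔEx3 livers and 388.6 to 630.8 in WT livers. Pou5f1, Sox2, Zfp42, Dppa2 and Dppa3 were above background on no array. Of the 11, 3 were called higher and none lower in β-catΔEx3:Myc against WT (all items 25% and 17.2%). In β-catΔEx3 against WT 2 were called higher and 1 lower (all items 21.1% and 15.6%). Tfcp2l1, a transcription factor of naive stem cells that epithelia also use, was higher by 1.61 ± 0.21 in β-catΔEx3:Myc livers (adjusted p = 0.000238, limma) and by 2.20 ± 0.22 in β-catΔEx3 livers (adjusted p = 9.5e-05), and it stayed called with slide as a block (blocked adjusted p = 0.0371 and 0.0193). It was the 1 gene of this list called in each of those blocked comparisons. Its signal was 704, 469, 428.2 and 476.8 in β-catΔEx3:Myc livers, 807.2, 494.1 and 858.5 in β-catΔEx3 livers, and 129.8 to 164.6 in WT livers.

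Lin28b was above background on 3 arrays, all of them β-catΔEx3:Myc. Its signal was 125.9, 65.93, 3.13 and 172.9 in β-catΔEx3:Myc livers, 3.48, 3.66 and 3.10 in β-catΔEx3 livers, and 3.19, 4.58, 3.50 and 2.92 in WT livers. Replicate 3 was the β-catΔEx3:Myc array without Lin28b signal, so the groups overlapped. Lin28b was at least 3.52-fold higher in β-catΔEx3:Myc than in WT livers and at least 4.87-fold higher than in β-catΔEx3 livers, with replicate 3 included in the mean; under normexp correction the fitted changes were 1.84-fold and 1.92-fold. No fold is given for β-catΔEx3 against WT, since all 7 arrays were not above background. The fitted sizes, which are no bounds, moved with single arrays: the log2 value was 3.54 against WT, 4.86 without replicate 3 and 2.86 without replicate 4, and it was 3.63 against β-catΔEx3, 4.95 without replicate 3 and 2.95 without replicate 4. The second Lin28b probe was above background on no array, at 8.66, 4.6, 3.16 and 6.9 in β-catΔEx3:Myc livers, 3.23 to 3.64 in β-catΔEx3 livers and 3.15 to 4.31 in WT livers, so the finding rests on 1 probe.

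The let-7 target genes among the 9 did not move as a block. Igf2bp3 was moderately higher in both mutant groups, at 1101, 953.6, 1276 and 740.3 in β-catΔEx3:Myc livers, 874.2, 501.9 and 640.4 in β-catΔEx3 livers, and 346.5, 275.9, 317.5 and 138.6 in WT livers. Both mutant groups lay above WT and overlapped each other. Its log2 fold change was 1.79 ± 0.25 (3.45-fold) for β-catΔEx3:Myc against WT, 1.31 ± 0.27 (2.48-fold) for β-catΔEx3 against WT and 0.48 ± 0.27 between the mutant groups. After blocking by slide, these were 2.18, 1.78 and 0.39; within slide 4 they were 2.09, 1.87 and 0.22, and within slide 2 the mutant groups differed by 0.48. Replicate 3, which lacked Lin28b signal, had the brightest Igf2bp3 of all 11 arrays.

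Hmga2 was dim and similar in the 3 groups. Its signal was 62.25, 45.35, 55.8 and 33.8 in β-catΔEx3:Myc livers, 34.5, 27.99 and 39.68 in β-catΔEx3 livers, and 29.33, 38.12, 42.75 and 33.13 in WT livers, and all groups overlapped. The log2 fold change was 0.25 ± 0.18 for β-catΔEx3:Myc against WT, -0.13 ± 0.20 for β-catΔEx3 against WT and 0.38 ± 0.20 between the mutant groups. With slide as a block the values were -0.02, -0.36 and 0.34; within slide 4 they were -0.30, -0.08 and -0.22, and within slide 2 the mutant groups differed by 0.62. Igf2bp1 was above background on 3 arrays scattered over the mutant groups. Its signal was 60.28, 3.16, 3.26 and 23.36 in β-catΔEx3:Myc livers, 3.61, 72.68 and 3.32 in β-catΔEx3 livers, and 6.06, 5.12, 3.53 and 3.09 in WT livers. β-catΔEx3:Myc replicates 1 and 4 and β-catΔEx3 replicate 2 carried all of that signal. No fold is given for Igf2bp1 in any comparison: against WT the bound was under 1, and between the mutant groups 4 of the 7 arrays were not above background.

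Other measured genes of the Lin28 and let-7 pathway numbered 25 (26 listed: let-7 processing enzymes, Lin28 partners and let-7 targets). In β-catΔEx3:Myc against WT 6 were called higher and 6 lower (all items 25% and 17.2%). In β-catΔEx3 against WT 7 were called higher and 5 lower (all items 21.1% and 15.6%), and none were called between the mutant groups. The medians were -0.01 and -0.18 on the log2 scale against WT. Hmga1, the close relative of Hmga2, was higher by 1.84 ± 0.21 in β-catΔEx3:Myc livers (adjusted p = 0.000118, limma) and by 1.16 ± 0.23 in β-catΔEx3 livers (adjusted p = 0.003). Igf2bp2, the third member of that family and the one kept in adult tissue, was lower by 1.47 in β-catΔEx3:Myc livers (adjusted p = 0.00583) and by 2.02 in β-catΔEx3 livers (adjusted p = 0.00212). Mycn, a relative of Myc and a let-7 target, was above background in WT livers alone, at 104.3, 117.8, 189.2 and 381.6. It was at least 15.4-fold lower in β-catΔEx3:Myc livers (adjusted p = 0.00012) and at least 20.7-fold lower in β-catΔEx3 livers (adjusted p = 0.000317), and both calls held with slide as a block (adjusted p = 0.00665 and 0.00598). When slide entered the fit, 2 higher and 1 lower calls were left in β-catΔEx3:Myc against WT, and 1 in each direction in β-catΔEx3 against WT. Calls on Igf2bp2 were not among them, and Hmga1 kept its call against WT in β-catΔEx3:Myc livers (adjusted p = 0.0479) and not in β-catΔEx3 livers (adjusted p = 0.158).

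Of 26 other hepatoblast and fetal liver genes, 11 were called higher and 6 lower in β-catΔEx3:Myc against WT (all items 25% and 17.2%). In β-catΔEx3 against WT 6 were called higher and 3 lower, near the shares of all items (21.1% and 15.6%). The fetal growth genes Igf2, H19 and Dlk1, which are imprinted, were raised in the Myc livers. Igf2 read 1125, 1552, 46.78 and 2297 in β-catΔEx3:Myc livers, at most 5.67 in β-catΔEx3 livers, where no array was above background, and 56.03, 4.82, 3.53 and 3.04 in WT livers. Against WT in the limma fit, Dlk1 was higher by 6.38 ± 1.37 (adjusted p = 0.00401), Igf2 by 6.31 ± 1.26 (adjusted p = 0.00266) and H19 by 5.66 ± 0.97 (adjusted p = 0.00117). In WT livers Igf2 was above background on 1 of 4 arrays and Dlk1 on 3 of 4, and with the other WT values raised to the lowest signal above background on each array the differences were 5.08 for Igf2 (adjusted p = 0.00338) and 5.98 for Dlk1 (adjusted p = 0.00324). For β-catΔEx3 against WT, Dlk1 differed by 0.21 ± 1.48 and H19 by 0.35 ± 1.05, no fold is given for Igf2, and none of the 3 passed the test. Meg3, an imprinted non-coding RNA next to Dlk1, was instead higher in both mutant groups, by 5.31 ± 0.76 in β-catΔEx3:Myc livers (adjusted p = 0.000442) and 5.83 ± 0.83 in β-catΔEx3 livers (adjusted p = 0.000584). Aldoa, the fetal form of aldolase in liver, was higher by 2.21 (adjusted p = 7.97e-05) and 2.37 (adjusted p = 0.000121). Between the mutant groups 0 of 26 passed the test, and 4 did, all higher, without β-catΔEx3:Myc replicate 3: Igf2 (adjusted p = 0.00666), Dlk1 (7.62, adjusted p = 0.0114), H19 (6.30, adjusted p = 0.00861) and Peg3 (3.91, adjusted p = 0.0409). In β-catΔEx3 livers Dlk1 and Peg3 were each above background on 1 of 3 arrays. With all 4 β-catΔEx3:Myc arrays in, Igf2 was at least 69.6-fold higher than in β-catΔEx3 livers. Against WT, where the size of Igf2 rests on values below background, that removal moved Igf2 to 7.61, Dlk1 to 7.84, H19 to 6.65 and Meg3 to 5.96. Igf2 was 7.26 without WT replicate 1 and 5.66 without β-catΔEx3:Myc replicate 4; Dlk1 was 7.04 without WT replicate 1, 5.65 without WT replicate 2 and 5.50 without β-catΔEx3:Myc replicate 4, and Meg3 was 4.73 without the last of these. After blocking by slide, 8 higher and 2 lower calls were left in β-catΔEx3:Myc against WT, and 3 higher and 1 lower in β-catΔEx3 against WT.

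Of 15 measured liver tumour markers (16 listed), 2 were called higher and 4 lower in β-catΔEx3:Myc against WT (all items 25% and 17.2%). In β-catΔEx3 against WT 3 were called higher and 1 lower (all items 21.1% and 15.6%). The surface receptor Igdcc4 was higher by 5.83 ± 0.54 in β-catΔEx3:Myc livers (adjusted p = 3.65e-05, limma) and by 3.26 ± 0.58 in β-catΔEx3 livers (adjusted p = 0.00194), with signals of 1609, 1447, 811.8 and 1892 in β-catΔEx3:Myc livers, 545.9, 197.5 and 86.66 in β-catΔEx3 livers, and at most 38.16 in WT livers. Its change in β-catΔEx3 livers was 2.55 without β-catΔEx3 replicate 1 and 3.91 without replicate 3, and that call was lost with slide as a block (adjusted p = 0.0608). The axon guidance receptor Robo1 was higher by 1.80 (adjusted p = 0.00043) and 1.88 (adjusted p = 0.000723) in the same comparisons, and both calls were lost with slide as a block (adjusted p = 0.062 and 0.0567). A signature that sorts human hepatoblastomas gave 3 of 7 genes of its proliferative class higher and none lower in each mutant group against WT. In the differentiated class of 8 genes, 2 were called higher and 3 lower in β-catΔEx3:Myc against WT, and 1 higher and 3 lower in β-catΔEx3 against WT. Ghr, the growth hormone receptor, was lower by 2.02 in β-catΔEx3:Myc livers (adjusted p = 4.64e-05) and by 1.44 in β-catΔEx3 livers (adjusted p = 0.000673). With slide as a block, the tumour markers kept 1 higher call in β-catΔEx3:Myc against WT and none in β-catΔEx3 against WT, and the proliferative class kept 1 and none. The differentiated class kept no higher call and 2 lower calls in each of these comparisons.

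**Figure D3:**
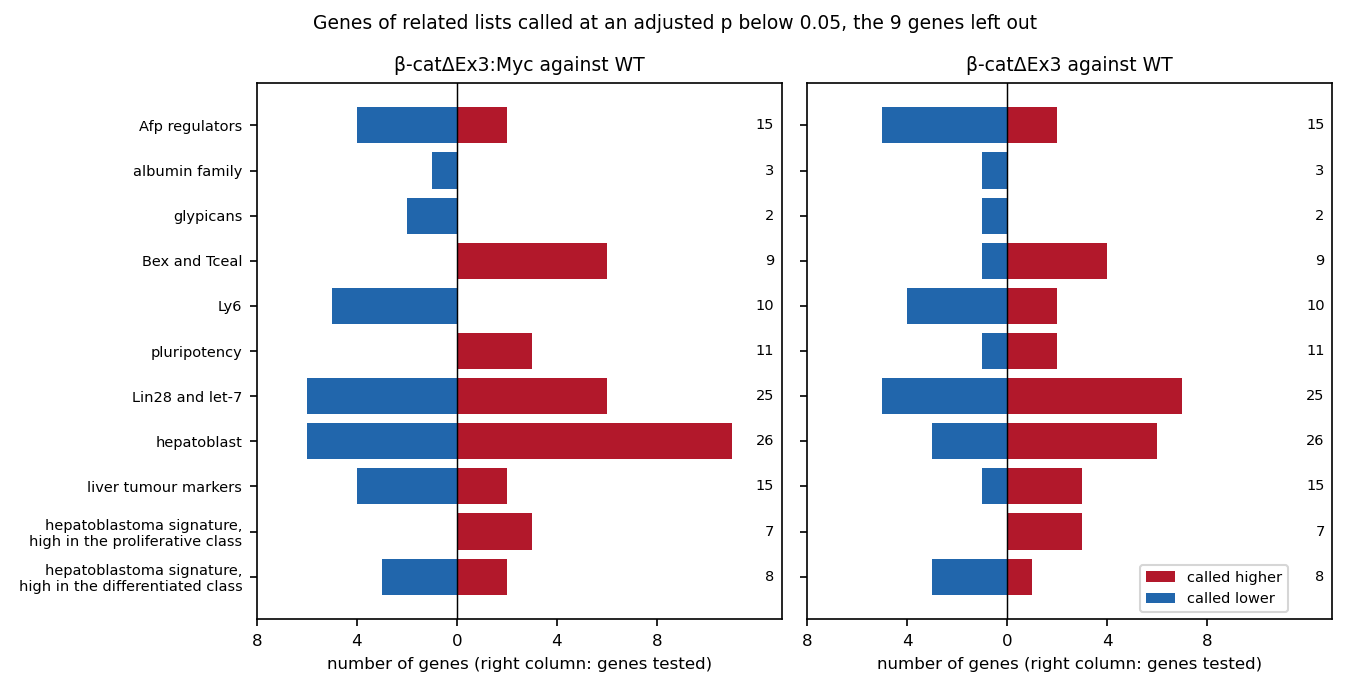
Number of genes of each related list called higher (right of 0) or lower (left of 0) at an adjusted p below 0.05 in β-catΔEx3:Myc against WT and in β-catΔEx3 against WT, with the number tested in the right column; the 9 genes are left out. The Bex and Tceal list leans to higher calls and the Ly6 list to lower calls in both comparisons. The hepatoblast list of 26 genes has 11 higher and 6 lower calls in β-catΔEx3:Myc against WT, and 6 and 3 in β-catΔEx3 against WT. Over all items 25% were called higher and 17.2% lower in the first comparison, and 21.1% and 15.6% in the second.

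The 4 β-catΔEx3:Myc arrays did not carry these genes evenly. Replicate 3 was the lowest of its group, after scaling, for 6 of the 9 genes, and for 22.4% of all items (4992 of 22283). For Ly6d it was barely so, at a log2 level of 4.098 against 4.103 on replicate 1. Lin28b and Igf2bp1 are counted among the 6, although neither was above background on replicate 3, and Igf2bp1 was not on replicate 2 either and has no order there. Replicate 3 minus the mean of the other 3 arrays was -4.20 for Bex1, -1.86 for Gpc3, -1.14 for Afp and -0.41 for Ly6d on the log2 scale. For Lin28b it was -3.59 with the value of replicate 3 raised to the lowest signal above background on that array, so the fall was at least of that size. It was 0.16 for Hmga2, 0.34 for Igf2bp3 and 0.59 for Dppa5a. Replicate 3 minus the others was -1.71 for Myc itself, -5.22 for Igf2, -5.84 for Dlk1 and -3.95 for H19. Against the β-catΔEx3 mean, Bex1 on replicate 3 was higher by 0.60, Afp by 1.22 and Gpc3 by 2.53, while the other 3 arrays were higher by 4.80, 2.35 and 4.38. The erythroid markers on replicate 3 summed to 33.3 times the upper quartile, the lowest of the 11 arrays, and the haematopoietic progenitor markers to 1.21, also the lowest. Low erythroid sums were not particular to replicate 3. They were 879, 376 and 76.8 on replicates 1, 2 and 4, and 40.6, 154 and 130 on the β-catΔEx3 arrays. The part of slide, of Myc level or of blood-forming cells in the position of replicate 3 was not tested.

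**Figure D4:**
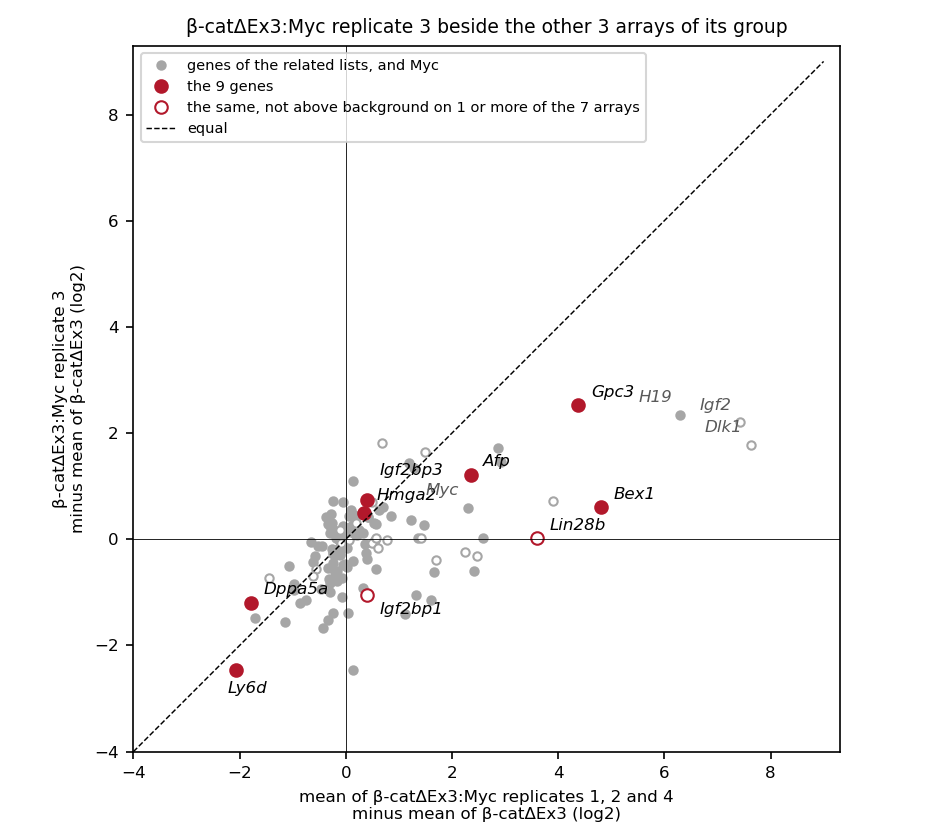
Difference from the β-catΔEx3 mean (log2) for the mean of β-catΔEx3:Myc replicates 1, 2 and 4 (x axis) and for replicate 3 (y axis), with values below background raised to the lowest signal above background on their array. Red points are the 9 genes, grey points the related genes and Myc, open points genes not above background on 1 or more of the 7 arrays, and the dashed line marks equality; Bex1 lies far below the line, at 4.80 and 0.60, Lin28b (open) at 3.61 and 0.02, and Ly6d, Dppa5a, Hmga2 and Igf2bp3 lie near it.

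For each member well above background on every array of a mutant group, the 3 most alike genes were found by the mean absolute difference of median-centred log2 values over the 11 arrays, a description with no p. Afp was closest to Ldhb (0.852), Ggt1 (1.03) and Dctd (1.04), a lactate dehydrogenase subunit, gamma-glutamyltransferase and a deoxycytidylate deaminase. Ldhb read 24000, 27880, 14600 and 16930 in β-catΔEx3:Myc livers, 8462, 6396 and 6637 in β-catΔEx3 livers, and 213.7, 197.3, 309.8 and 281.6 in WT livers, with a WT group far tighter than that of Afp. Bex1 was closest to the calcium-binding protein S100g (0.49), then Myot (0.811) and Mep1a (0.863). S100g repeated the staircase, at 6400, 3343, 842 and 6066 in β-catΔEx3:Myc livers, 196, 322 and 164.5 in β-catΔEx3 livers, and 28.35 to 63.82 in WT livers, with replicate 3 again the lowest of its group. Ly6d was closest to Zfp185 (0.579), Nrg1 (0.865) and 5730409E04Rik (0.877), and Dppa5a to Sema3b (0.545), Fndc10 (0.776) and Gsta2 (0.778). Nrg1, a ligand of ErbB receptors, read 264.5, 695.6, 502.2 and 303.4 in β-catΔEx3:Myc livers, 2030, 824.1 and 2288 in β-catΔEx3 livers, and 26.36 to 66.5 in WT livers. Igf2bp3 lay within 0.177 of Cmss1 and Slc25a12 and 0.193 of Rbm17, and Hmga2 within 0.138 to 0.143 of Vps33a, Zfp119b and Stat3. Among the members themselves the smallest distance was 0.63, between Hmga2 and Igf2bp3, and Afp and Bex1 were 1.62 apart. The distance is also small where genes change little, so it need not mean a shared pattern. Igf2bp3 was higher in both mutant groups than in WT, while Hmga2 was similar in all groups. In WT livers Ggt1, Dctd, Myot and Mep1a read at most 6.89, under the lowest signal above background on each array. Dppa5a itself was not above background on any WT array, so its distances rest in part on values below background.

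Gpc3 was closest to Gp1ba (0.7), Bex3 (0.77) and Gp9 (0.798). Gp1ba and Gp9 encode subunits of the platelet receptor for von Willebrand factor. Gp9 read 317.6, 254.5, 186.4 and 254.1 in β-catΔEx3:Myc livers, 34.99, 45.56 and 24.34 in β-catΔEx3 livers, and 44.65 to 64.15 in WT livers. A list of 9 megakaryocyte markers was added after these values were seen, so it is no independent evidence. All 9 were measured, and their summed level was 7.31 to 12.6 times the upper quartile in β-catΔEx3:Myc livers, 1.24 to 2.48 in β-catΔEx3 livers and 2.77 to 3.94 in WT livers. The groups did not overlap on that sum, which was higher in WT than in β-catΔEx3 livers. Biliary markers summed to 1.04 to 1.26 in β-catΔEx3:Myc livers, 2.25 to 2.46 in β-catΔEx3 livers and 1.53 to 3.91 in WT livers. Macrophage markers summed to 10.8 to 30.8, 12 to 28.4 and 122 to 185 in the same order of groups, and endothelial markers to 20.1 to 28.2, 26.7 to 35 and 43.2 to 55.6. Stellate and fibroblast markers summed to 25.2 to 50.1, 61.7 to 69.9 and 76.9 to 138. The proliferation markers overlapped between all groups, at 5.92 to 33.7 in β-catΔEx3:Myc livers, 4.02 to 21.6 in β-catΔEx3 livers and 7.42 to 18.5 in WT livers. The part of these cell types in the levels of the 9 genes was not tested.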

How the data were processed

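Liver RNA of 11 mice was measured on 1-colour (Cy3) Agilent arrays. Agilent Feature Extraction 10.7.1.1 read the arrays, per the file headers. Processed signals were deposited by the authors in intensity units, background-subtracted and not normalized between arrays, beside median foreground and background intensity and 0 or 1 flags. The deposited matrix holds log2 values, quantile normalized by the authors (from its columns, all with a median of 4.51), and served as an alternative.

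Outlier-flagged spots were left out (137 to 209 per array of 59305), spots of each of 55681 probes were averaged, and the 75th percentile of each array was subtracted on the log2 scale. A probe entered the fit if 3 or more arrays had it well above background (29697 did). Symbols came from RefSeq (26582 probes with one, 29099 without, those treated by accession), and the brightest probe stood for a gene. limma 3.58.1 in R 4.3.3 fitted 3 group means to 11 arrays (residual df 8, prior df 2.52), 2-sided, with Benjamini-Hochberg adjustment over 22283 items at 0.05; it was tested on simulated data. The data reader data.table, version 1.17.8, Python 3.11.15, pandas 2.3.3 and matplotlib 3.10.9 were also used. No value of the 9 genes was missing.

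The 9 genes, the related lists and the naming rule were chosen with earlier results of these data known. From each related list, up to 3 called genes with the largest change in each comparison could be named, or the brightest gene where none was called. Peg3 and Nanog were named outside that rule, after their values were seen, and Syp was also named outside it. Normexp background correction, one alternative, was run on median signals with an offset of 50, since the mean signal was not used here. Of 203 related genes, 198 were matched to a symbol. Replicates may share litters, so p-values measure only the spread between these samples.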

Additional observations from a re-analysis of the deposited data

Results flagged for a closer look

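In groups of 4 arrays, 1 array was marked where its gap to the nearest other array, divided by the range of the group, was above Dixon's 95% critical value. Of 176 groups of a probe tested, 15 were marked, and chance marks about 1 in 20. No explanation was weighed.

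Among the 9 genes, Bex1 was marked on both probes for β-catΔEx3:Myc replicate 3, with ratios of 0.927 and 0.934; its log2 level was 0.75 on the first probe, against 4.78 to 5.10 on the other 3 arrays. Dppa5a was marked for WT replicate 4 (0.944), where it was not above background, at a signal of 3.38.

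β-catΔEx3:Myc replicate 3 was also marked, on the low side, for Bex4 (0.843, a log2 level of 3.31 against 5.48 to 5.88) and for Gp9 (0.943). β-catΔEx3:Myc replicate 1 was marked for Hmga1 (0.846, high) and Apoe (0.838, low). WT replicate 1 was marked on the high side for Igf2 (0.874, a log2 level of -2.34 against -6.40 to -5.89) and Aldoa (0.864), and WT replicate 2 for Dusp9 (0.873, high). WT replicate 4, the only WT array of slide 4, was marked for Serpina1a (0.849, high), Apoe (0.85, high), Dcn (0.869, low), Birc5 (0.891, low) and Gp1ba (0.838, low).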

How the results depend on the processing

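The number of items called in β-catΔEx3:Myc against β-catΔEx3 was 56 and depended on single arrays and on scaling. Leaving out 1 array gave 10 (without β-catΔEx3 replicate 3) to 179 (without β-catΔEx3:Myc replicate 3), with 15, 21 and 35 without WT replicates 1, 2 and 3, 17 and 23 without β-catΔEx3:Myc replicates 2 and 4, and 115 without β-catΔEx3 replicate 1. With slide as a block, 1925 items were called in β-catΔEx3:Myc against WT (9419 without the block), 1787 in β-catΔEx3 against WT (8193) and 181 between the mutant groups. Taking the 75th percentile over probes above background on all arrays gave 35 between the mutant groups and moved the median of all items to -0.012 in β-catΔEx3:Myc against WT (0.133 otherwise) and to -0.085 in β-catΔEx3 against WT (0.091 otherwise); higher and lower calls then numbered 4427 and 4748 (5580 and 3839 otherwise), 3412 and 4664 (4708 and 3485), and 20 and 15 (24 and 32). Raising values below background to the lowest signal above background on their array, an alternative chosen after seeing the data, gave 116 (45 higher and 71 lower) between the mutant groups. Causes were not tested.

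Under other settings, 513 member values moved by less than the spread between replicates and 21 by more. Part of the 513 could not move, since leaving out an array of a group outside the comparison leaves the fitted difference unchanged. Lin28b and Igf2bp1 could not be tested where 6 arrays above background were required. Of the calls on related genes and markers, 4348 stayed on their side of the threshold, 269 were lost, 41 were gained and 1 changed sign: the log2 difference of Gp1ba in β-catΔEx3 against WT was 0.0119 with slide as a block, a gene above background on no β-catΔEx3 array. No paired analysis was possible because the sample numbers in the labels differ between groups.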
